A study of Sus scrofa with 6 samples.

Results

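Genes of transforming growth factor beta (TGF-beta), bone morphogenetic protein (BMP) and Wnt signalling were examined in longissimus muscle, the long back muscle, of pigs with high or low intramuscular fat. The members are the records of the deposited expression table whose symbol begins with the name of a ligand, receptor, inhibitor or signal carrier of these pathways. They comprise 34 of the 7661 records, with 33 distinct symbols, because TGFBR1 has 2 records. RNA was sequenced from 6 libraries, 3 labelled high and 3 labelled low in intramuscular fat, the fat between and within muscle fibre bundles. Both groups are freshly harvested longissimus muscle of Sus scrofa, with no treatment named in the labels. The sources used here do not give breed, sex, age or the fat percentage of each animal. The design text gives 3 pigs per group, so the spread quoted below is the spread between those libraries.

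TGF-beta, BMP and activin ligands bind a type II receptor kinase, which switches on a type I receptor kinase, which in turn phosphorylates SMAD transcription factors that enter the nucleus with SMAD4. Wnt ligands bind a Frizzled receptor together with LRP5 or LRP6, which stops the AXIN and APC complex from destroying beta-catenin, the partner of TCF transcription factors. In skeletal muscle TGF-beta itself is known for restraining muscle growth and for driving connective tissue formation. BMP signals are known to favour, and Wnt signals through beta-catenin to hinder, the conversion of precursor cells into fat cells.

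Of the 12 members whose groups did not overlap, 8 were receptor records, although no member passed the test over all genes. For comparison, the groups did not overlap in 24.2% of the table. LRP6, FZD4, both TGFBR1 records, TGFBR2, TGFBR3, BMPR1A and BMPR2 were each higher in every high library than in any low library. The log2 fold changes (high minus low) of those 8 ran from 0.65 to 0.93, or 1.57- to 1.91-fold. The SMADs lay between -0.21 and 0.22, beta-catenin (CTNNB1) was at 0.12 and TGFB1 at 0.01. BMP1 and DVL1 were lower in every high library than in any low library. Whether the receptors as a group differ from the other members was not tested.

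The test was edgeR's quasi-likelihood test with Benjamini-Hochberg adjustment over all 7661 genes. It called 0 of the 34 members at an adjusted p of 0.05, against 11 genes or 0.144% of the table. At an unadjusted p of 0.05 there were 13 members, where the share of the table is 18.5%. Of these, 11 were higher (10.2% of the table) and 2 lower (8.3% of the table). DESeq2, a second count model, called 10 members beside 6.77% of the genes it tested, 9 of them higher (4.92% of those genes) and 1 lower (1.84%). edgeR's exact test called 6, all higher, beside 4.12% of the table. In the authors' deposited table the same 6 records, LRP6, TGFBR3, BMPR1A, BMPR2 and both of TGFBR1, have a false discovery rate under 0.05, all higher. At that rate 4.12% of the table is listed, 3.25% higher and 0.875% lower. The authors' rates nearly equal the exact test's adjusted p-values (LRP6 0.00153 in both) and come from the same counts. They are not a separate result. The call therefore depended on the test: 0, 6 or 10 members passed.

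Library values below are the deposited CPM (reads per 1e6 of the library total that the deposited counts and CPM imply). Folds come from the edgeR fit with TMM scaling. The groups did not overlap in CPM for 10 higher and 2 lower members, where the shares of the table are 10.4% and 13.7%. On TMM-normalised CPM these numbers became 15 higher and 2 lower members, against 13.5% and 13.3% of the table. CTNNB1, TGFBI, SMAD4, SMURF2 and BMP6 made up the difference. The median log2 fold change was 0.17 over the members and -0.04 over all genes, with 23 members above 0 against 45.2% of the table. Every record in the table exceeds 10 CPM in at least 3 libraries, so a gene can be listed because 1 group is high. Of the 34 members, 27 exceeded 10 CPM in all 6 libraries. Another 3 did so in every high library but in fewer of the low ones: BMPR1A, TCF7L2 and the TGFBR1 record ENSSSCG00000005382. All 3 are among the 10 members higher without overlap. Of the 7661 records in the table, 583 showed the same split. Counts over the listed members are therefore descriptions. No record of the rule carried the symbols MSTN, FST, APC, or a WNT or DKK name, and those genes are not analysed here under the rule.

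**Figure D1:**
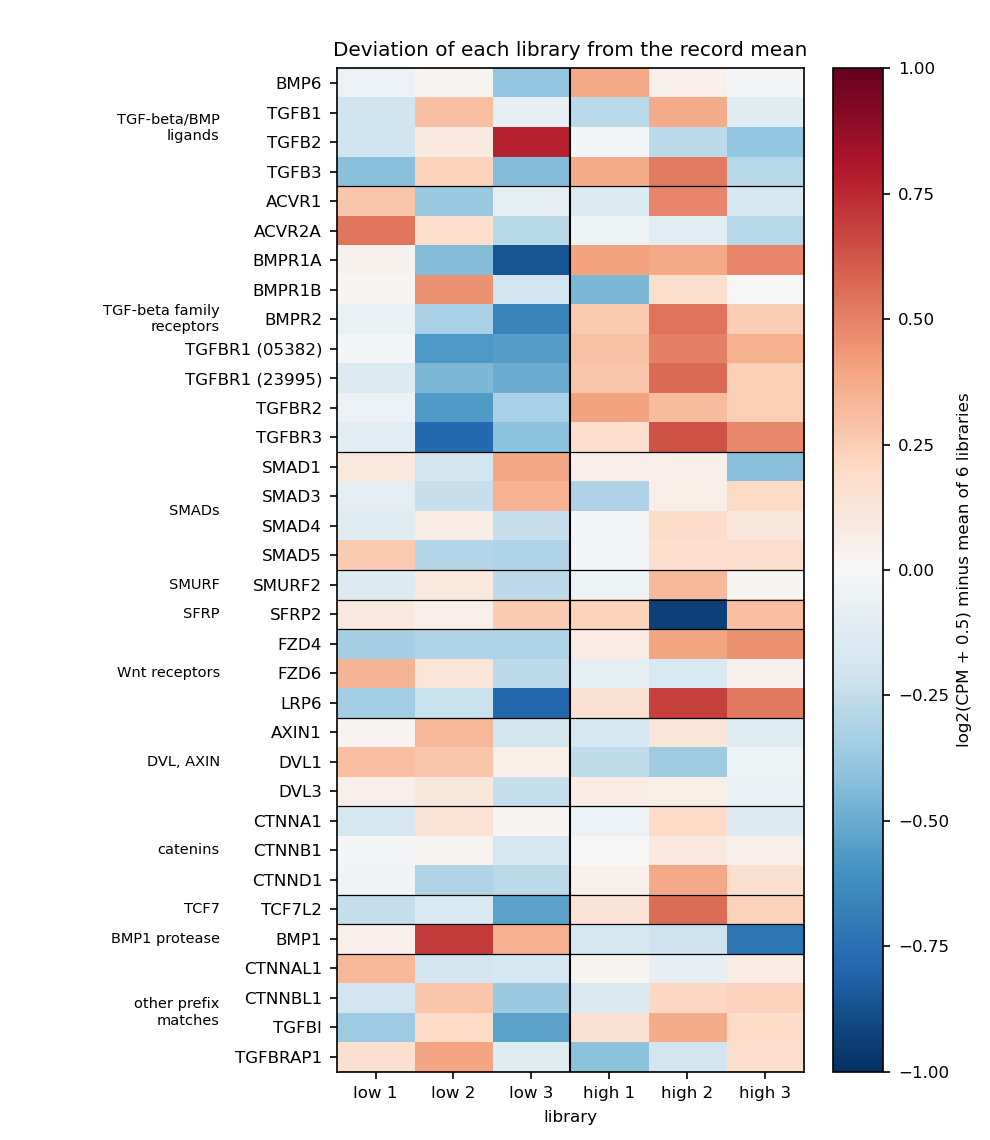
Each row is 1 of the 34 records, grouped by role, and each column 1 library. Colour gives log2(CPM + 0.5) minus the record's mean over 6 libraries. The rows of BMPR1A, BMPR2, TGFBR1, TGFBR2, TGFBR3, FZD4 and LRP6 are red in the 3 high libraries, while the SMAD rows show no such split.

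Library totals, taken as count over deposited CPM, ran from 25371989 to 34813172 reads. The listed genes held 96.6% to 97.2% of them, and whether they include all sequenced reads is not known. The members together took between 1060 and 1142 CPM in the low libraries and between 1149 and 1287 CPM in the high libraries. The lowest count of any member in any library was 190 reads, for which counting error alone is 7.25%. Spread between libraries was larger: the coefficient of variation of the members had a median of 19.8% in the low group and 13.3% in the high group. The tissue label was checked on fibre markers. Of 10 skeletal muscle fibre markers 7 were listed, among them ACTA1 and CKM, and they summed to between 84464 and 91461 CPM in the low and between 87989 and 91413 CPM in the high libraries.

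Ligands of the TGF-beta family came first in the signal chain and showed no member without overlap in deposited CPM. TGFB1, the ligand best known for fibrosis (chromosome 6, 45127027 to 45139176), stood at 11.7, 16.8 and 12.7 CPM in low libraries 1 to 3 and 11.1, 17.6 and 12.4 CPM in high libraries 1 to 3. The groups covered the same range, and the log2 fold change was 0.01 (edgeR quasi-likelihood adjusted p = 0.976, SE 0.20). TGFB2, a ligand that depends on the co-receptor TGFBR3 for binding (chromosome 10, 10354223 to 10478457), was at 35.7, 44.1 and 70.2 CPM in the low and 40.7, 34.2 and 31.3 CPM in the high libraries. Low library 3 alone was high. The log2 fold change was -0.50 (adjusted p = 0.379, SE 0.29), and -0.09 without low library 3. TGFB3 (chromosome 7, 105178633 to 105199719) was at 7.64, 12.3 and 7.56 CPM in the low and 13.6, 15.1 and 8.48 CPM in the high libraries. High library 3 lay inside the low range, and the log2 fold change of 0.46 (SE 0.26) did not pass. BMP6, a BMP ligand known for iron regulation and bone formation, had 0.31 (adjusted p = 0.342, SE 0.17), and its groups were apart on TMM-normalised CPM alone. The value was 0.16 without high library 1 and 0.09 with the trend by gene span, described below, removed.

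The receptors of TGF-beta itself were all higher in the high libraries. TGFBR2, the type II receptor (chromosome 13, 18707605 to 18710521), was at 15.4, 10.7 and 12.7 CPM in low libraries 1 to 3 and at 21.4, 20.2 and 19.01 CPM in high libraries 1 to 3. The groups did not overlap, and the high libraries lay close together. The fold change was 1.57 (log2 0.65, SE 0.18, edgeR quasi-likelihood adjusted p = 0.155). TGFBR1, the type I partner that TGFBR2 activates, has a record on chromosome 1 (ENSSSCG00000005382, 269090665 to 269145134) and another on scaffold JH118626.1 (ENSSSCG00000023995, 12379 to 39561). The chromosome 1 record was at 12.5, 8.35 and 8.49 CPM in the low and at 15.6, 18.2 and 16.3 CPM in the high libraries. The scaffold record was at 20.4, 16.4 and 15.8 CPM in the low and at 27.3, 33.6 and 26.6 CPM in the high libraries. In both records low library 1 was the highest of its group and still below every high library. Their log2 fold changes were 0.79 (adjusted p = 0.124, SE 0.19) and 0.75 (adjusted p = 0.108, SE 0.16). The scaffold record held 1.64 to 1.96 times the CPM of the chromosome 1 record in the low libraries and 1.63 to 1.85 times in the high libraries. The 2 records can share reads and are not independent measurements.

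TGFBR3, or betaglycan, presents TGF-beta ligands to the type II receptor. Its record on chromosome 4 (136728413 to 136891883) was at 17.4, 10.7 and 14.0 CPM in the low libraries and at 21.1, 29.5 and 26.4 CPM in the high libraries. The groups were apart, with the gap between low library 1 and high library 1 the narrowest. The log2 fold change was 0.87 (adjusted p = 0.134, SE 0.22), or 1.83-fold.

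Receptors that serve BMPs and activins split into those that were higher and those that were not. BMPR1A, a type I receptor of BMPs (chromosome 14, 95245458 to 95279476), was at 12.3, 8.74 and 6.34 CPM in low libraries 1 to 3 and at 15.96, 15.7 and 17.0 CPM in high libraries 1 to 3. The high libraries agreed to within 4.29% (coefficient of variation) while the low ones spread over 32.7%. The log2 fold change was 0.86 (adjusted p = 0.142, SE 0.22). BMPR2, the type II receptor dedicated to BMPs (chromosome 15, 117426776 to 117589050), was at 33.0, 27.6 and 21.7 CPM in the low and at 41.7, 50.8 and 41.3 CPM in the high libraries. Every high library exceeded every low one, with a log2 fold change of 0.72 (adjusted p = 0.113, SE 0.16).

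The remaining BMP and activin receptors did not follow BMPR1A and BMPR2. BMPR1B, the other type I receptor of the BMPs, was at 10.5, 14.4 and 9.06 CPM in the low and at 7.49, 11.8 and 10.4 CPM in the high libraries (-0.17, SE 0.21). ACVR1, a type I receptor for BMPs and activins, was at 21.97, 13.9 and 16.95 CPM in the low and at 16.4, 25.6 and 16.03 CPM in the high libraries (0.14, SE 0.24). ACVR2A, a type II receptor that binds activins, myostatin and BMPs, was at 19.5, 14.99 and 10.9 CPM in the low and at 12.8, 12.3 and 10.9 CPM in the high libraries (-0.31, SE 0.21). All 3 overlapped between groups, and the ACVR2A value shrank to -0.07 without low library 1.

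**Figure D2:**
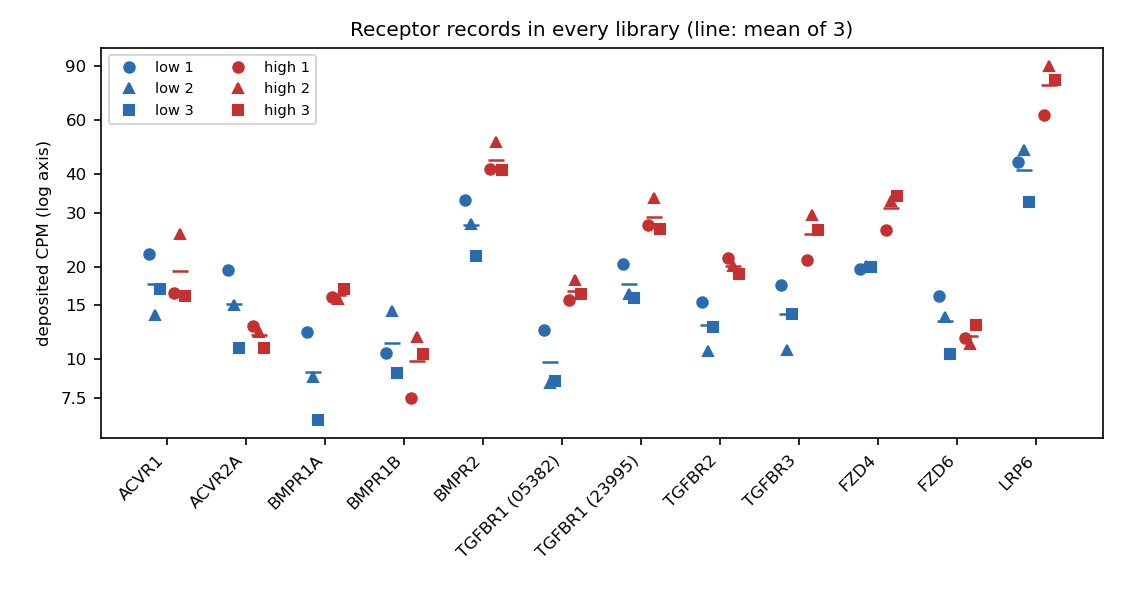
Deposited CPM on a log axis for the 12 receptor records in each library (blue low, red high, marker shape gives the library number, line gives the mean of 3). For 8 of the 12 records all red points lie above all blue points, whereas ACVR1, ACVR2A, BMPR1B and FZD6 overlap.

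The SMADs, which carry the receptor signal to the nucleus, overlapped between groups in 4 of 4 records in deposited CPM, and in all but SMAD4 on TMM-normalised CPM. Overlap in deposited CPM was the usual outcome, as the groups did not overlap in 24.2% of the table. SMAD4, the common partner of the other SMADs (chromosome 1, 110509117 to 110563187), was at 61.3, 70.2 and 56.7 CPM in the low and at 65.8, 75.6 and 71.9 CPM in the high libraries. Low library 2 reached into the high range, and the log2 fold change was 0.20 (edgeR quasi-likelihood adjusted p = 0.355, SE 0.11). SMAD3, which transmits TGF-beta and activin signals (chromosome 1, 182898590 to 182926415), was at 62.4, 56.6 and 84.7 CPM in the low and at 53.6, 69.6 and 76.3 CPM in the high libraries. Its log2 fold change of -0.03 (SE 0.22) changed sign when low library 3 or high library 1 was left out. SMAD1 (-0.21, SE 0.22) and SMAD5 (0.22, SE 0.19), which transmit BMP signals, lay on opposite sides of 0. SMURF2, a ubiquitin ligase that removes SMADs and receptors, was at 11.98, 14.3 and 10.98 CPM in the low and at 12.8, 16.7 and 13.4 CPM in the high libraries (0.22, SE 0.14, adjusted p = 0.426), again with overlap in deposited CPM but not after TMM scaling.

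LRP6, the co-receptor that Wnt ligands bring together with a Frizzled, had the smallest p of the members and ranked 44 among all genes by p. On chromosome 5 (63577474 to 63674469) it was at 43.9, 47.9 and 32.4 CPM in low libraries 1 to 3 and at 62.4, 90.2 and 81.1 CPM in high libraries 1 to 3. The groups did not overlap, and high library 2 was the highest. The fold change was 1.91 (log2 0.93, SE 0.16, edgeR quasi-likelihood adjusted p = 0.0921). It was the 1 member with an adjusted p under 0.1.

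FZD4, a Frizzled receptor for Wnt ligands and Norrin (chromosome 9, 23002417 to 23006976), was at 19.6, 20.1 and 20.01 CPM in the low and at 26.4, 32.8 and 34.1 CPM in the high libraries. The low libraries varied by 1.17% (coefficient of variation), the least of any member in either group. The log2 fold change was 0.66 (adjusted p = 0.108, SE 0.14), or 1.58-fold. FZD6, a Frizzled linked mainly to cell polarity, was at 16.03, 13.7 and 10.4 CPM in the low and at 11.7, 11.2 and 12.95 CPM in the high libraries (-0.14, SE 0.17), with overlap.

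SFRP2, a secreted protein that binds Wnt ligands, turned on 1 library. It was at 22.9, 22.1 and 25.6 CPM in the low libraries and at 25.2, 10.9 and 26.5 CPM in the high libraries, so high library 2 stood apart. The log2 fold change was -0.15 (SE 0.33), and 0.17 without high library 2.

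Inside the cell, DVL1 and TCF7L2 showed groups without overlap, in opposite directions. DVL1, a Dishevelled protein that passes the signal on from Frizzled (chromosome 6, 58116729 to 58126973), was at 101.6, 100.1 and 85.9 CPM in low libraries 1 to 3 and at 69.1, 64.4 and 80.1 CPM in high libraries 1 to 3. High library 3 came nearest to the low group. The log2 fold change was -0.41 (edgeR quasi-likelihood adjusted p = 0.191, SE 0.13). DVL3 (0.06, SE 0.12) and AXIN1, the scaffold of the destruction complex (-0.10, SE 0.14), overlapped. AXIN1 was at 30.97, 38.5 and 26.7 CPM in the low and at 26.9, 33.1 and 27.9 CPM in the high libraries.

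Beta-catenin itself was among the steadiest members. CTNNB1 (chromosome 13, 27623128 to 27667302) was at 183.6, 189.8 and 165.7 CPM in the low and at 186.5, 198.5 and 192.8 CPM in the high libraries. Low library 2 was above high library 1 in deposited CPM but not after TMM scaling, and the log2 fold change was 0.12 (adjusted p = 0.595, SE 0.12). TCF7L2, a DNA-binding partner of beta-catenin (chromosome 14, 134586336 to 134788242), was at 9.25, 9.88 and 7.47 CPM in the low and at 12.2, 16.5 and 12.99 CPM in the high libraries. Every high library was above every low one, with a log2 fold change of 0.67 (adjusted p = 0.117, SE 0.16).

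The other catenins belong to cell adhesion more than to Wnt signalling. CTNND1, or p120 catenin, which steadies cadherins at the membrane, was at 54.5, 45.1 and 45.9 CPM in the low and at 57.5, 72.5 and 62.2 CPM in the high libraries, without overlap (0.41, SE 0.14, adjusted p = 0.191). CTNNA1, which links cadherins to actin, differed by less than its error (0.02, SE 0.14).

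Some records match the rule by name without being signal carriers. BMP1 encodes the protease that cuts procollagens and the BMP antagonist chordin, and was the lowest member by fold change. On chromosome 14 (6881426 to 6923145) it was at 24.2, 38.3 and 30.1 CPM in the low and at 20.6, 20.2 and 13.96 CPM in the high libraries. The groups did not overlap, and the log2 fold change was -0.73 (edgeR quasi-likelihood adjusted p = 0.160, SE 0.21). TGFBI, a matrix protein induced by TGF-beta, had 0.48 (adjusted p = 0.212, SE 0.17) with overlap in deposited CPM but not after TMM scaling. TGFBRAP1, a vesicle tethering protein that binds TGF-beta receptors, had -0.27 (SE 0.19), CTNNBL1, a splicing-associated protein, 0.21 (SE 0.19), and CTNNAL1, a catenin-like protein, 0.01 (SE 0.18).

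**Figure D3:**
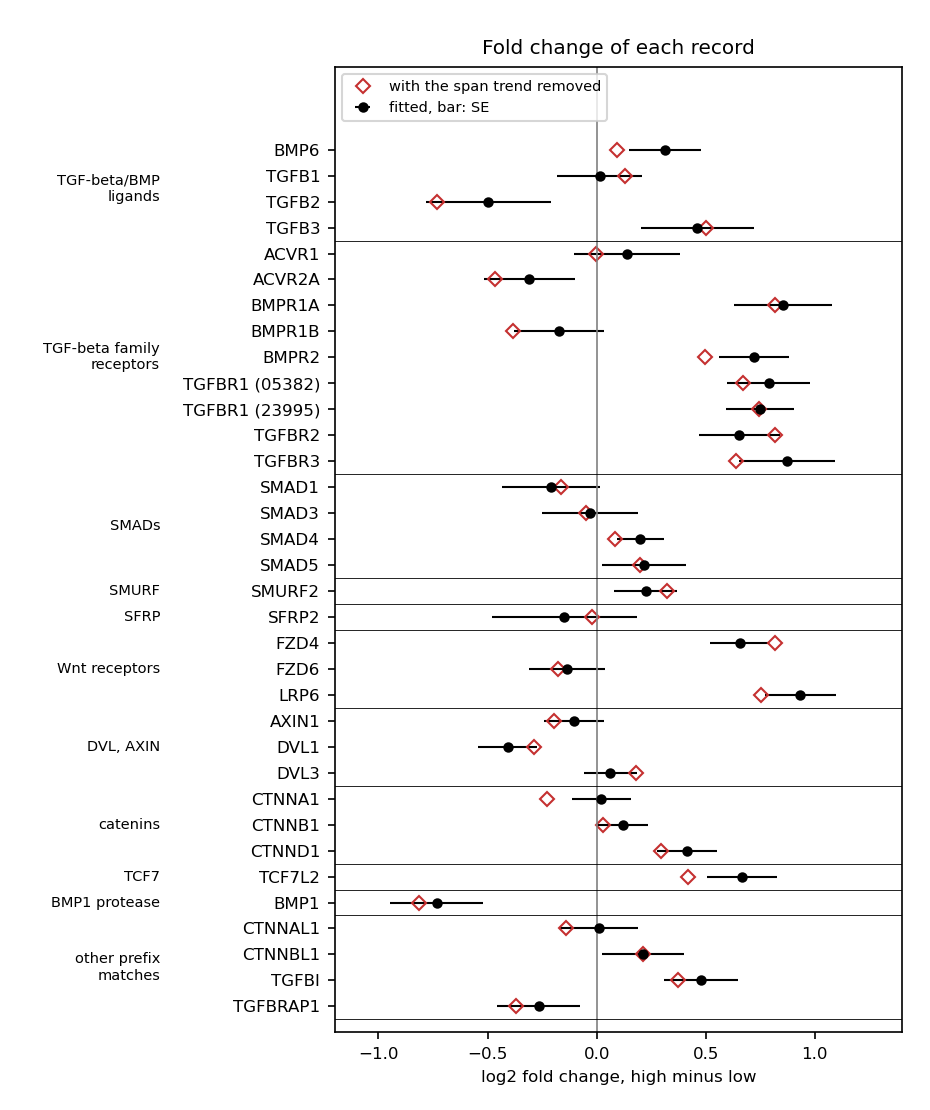
Log2 fold change (high minus low) of each of the 34 records with its standard error (black), and the value after the trend with gene span was removed in each library (red diamonds). BMPR1A, BMPR2, TGFBR1, TGFBR2 and TGFBR3 lie between 0.50 and 0.82 after removal, and the SMADs lie between -0.16 and 0.20.

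Records that span more of the genome had higher fold changes in this comparison, so the span of the members was set beside their values. Across all 7661 genes the Spearman correlation of log2 fold change with span was 0.407, and across the 34 members 0.126; genes share the libraries, and these are descriptions. The members have a median span of 45.01 kb against 21.7 kb for the table. The 766 genes with the longest spans had a median log2 fold change of 0.22, and 7 members are among them. These are TGFBR3 (0.87), BMPR2 (0.72), TCF7L2 (0.67), BMP6 (0.31), CTNNA1 (0.02), BMPR1B (-0.17) and TGFB2 (-0.50). The TGFBR2 record spans 2.92 kb and the FZD4 record 4.56 kb. Spans are those of the deposited records, and whether each covers the whole gene was not tested. With the trend removed, TGFBR2 and FZD4 both had 0.82, BMPR1A 0.82, LRP6 0.75 and the TGFBR1 records 0.67 and 0.75. TGFBR3 had 0.64, BMPR2 0.50 and TCF7L2 0.42, while BMP1 had -0.81, TGFB2 -0.73 and DVL1 -0.29. SMAD4 (0.08) and CTNNB1 (0.03) moved closer to 0, and ACVR2A (-0.47), BMPR1B (-0.38) and AXIN1 (-0.20) farther below it. The median of the members became 0.11, and 0 of them passed the adjusted threshold.

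**Figure D4:**
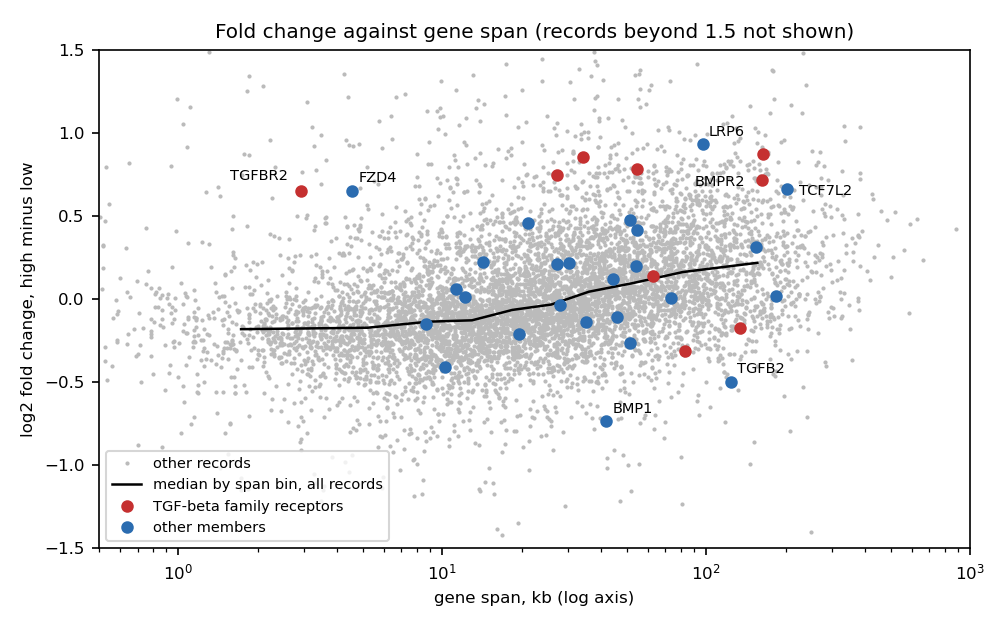
Log2 fold change (high minus low) against gene span on a log axis, with all records in grey, the medians of 10 bins by span as a line, TGF-beta family receptors in red and the other members in blue. TGFBR2 and FZD4 lie at short spans with values of 0.65 and 0.66, above the line there, and TGFB2 and BMP1 lie below it.

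The marker records of fat cells and of connective tissue also had positive log2 fold changes. Of 8 adipocyte marker symbols 6 were listed, on 7 records, and 7 of 7 had log2 fold changes above 0 (45.2% of the table), with a median of 1.17. In 5 of the 7 every high library exceeded every low one (10.4% of the table), and 2 passed edgeR's quasi-likelihood test. These were PLIN1, the perilipin that coats fat droplets (2.75, SE 0.32, adjusted p = 0.0409), and the THRSP record ENSSSCG00000024447, a regulator of fatty acid synthesis (2.94, SE 0.36, adjusted p = 0.0409). The other THRSP record, ENSSSCG00000020745, had 1.05 (SE 0.21, quasi-likelihood adjusted p = 0.108) and did not pass. The summed adipocyte level was between 141 and 293 CPM in the low and between 263 and 584 CPM in the high libraries. PLIN4, whose groups overlapped, had the largest CPM of these records in every library. Of 12 fibroblast and matrix marker symbols 11 were listed, on 14 records. The smallest quasi-likelihood adjusted p among them was 0.117 (COL5A2), which did not pass, while 14 of 14 had log2 fold changes above 0, with a median of 0.96, and 12 of 14 were higher without overlap. Their summed level was between 1596 and 2864 CPM in the low and between 3468 and 4737 CPM in the high libraries. PLIN1, CIDEA, RETSAT and the THRSP record ENSSSCG00000024447 exceeded 10 CPM in every high library but in fewer of the low ones. The same held for PDGFRA, POSTN and the COL5A1 record ENSSSCG00000005750. Such records can be listed because the high group is high, so the marker counts are descriptions. Endothelial markers (5 of 8) summed to between 262 and 397 against 329 and 386 CPM, and smooth muscle and pericyte markers (7 of 7) to between 401 and 559 against 549.5 and 650.3 CPM. Macrophage markers (2 of 7) summed to between 24.96 and 61.6 in the low and between 42.1 and 60.5 CPM in the high libraries. No listed marker record had a count of 0. The part of these cell types in the receptor values was not tested, and in bulk tissue more cells of a type and more RNA per cell cannot be told apart.

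Among the TGF-beta family receptors, low library 1 lay nearest to the high group, whereas over all 34 members low library 2 did (median deviation 0.04, against -0.04 in low library 1). The median deviation of the 9 TGF-beta family receptor records from their means was -0.02 on the log2 scale in low library 1, against -0.43 and -0.41 in low libraries 2 and 3. In the high libraries it was 0.26, 0.49 and 0.24. Leaving out low library 1 raised BMPR1A from 0.86 to 1.15, TGFBR3 from 0.87 to 1.06, the chromosome 1 record of TGFBR1 from 0.79 to 1.01 and BMPR2 from 0.72 to 0.89. With each library left out in turn, LRP6 ran from 0.83 to 1.06, FZD4 from 0.58 to 0.75, TGFBR2 from 0.50 to 0.81 and BMP1 from -0.87 to -0.57. Members with smaller values moved more in proportion: SMAD5 had 0.45 without low library 1 and 0.08 without low library 2, SMURF2 0.13 without high library 2, and BMPR1B -0.02 without low library 2 or high library 1. The quasi-likelihood test called 0 members in each of these 6 fits.

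**Figure D5:**
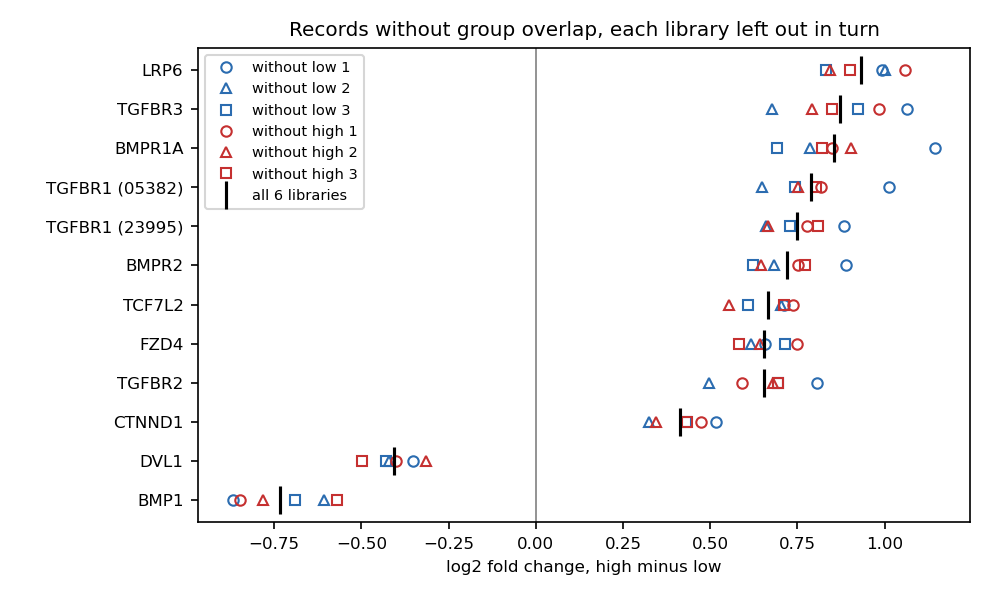
Log2 fold changes (high minus low) of the 12 records whose groups did not overlap, with each library left out in turn (symbols) and with all 6 libraries (black bars). No symbol crosses 0, and the values without low library 1 lie farthest to the right for BMPR1A, TGFBR1, TGFBR2, TGFBR3 and BMPR2.

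Other genes of the same pathways came from a list of 165 symbols, of which 73 were found on 75 records. The quasi-likelihood test called 0 of the 75, and at an unadjusted p of 0.05, 11 were higher and 4 lower, where the shares of the table are 10.2% and 8.3%. DESeq2 called 5, or 6.67% beside 6.77% of all genes, and the exact test 4, or 5.33% beside 4.12%. Their median log2 fold change was 0.16, with 54 above 0 and 21 below, where 45.2% of the table is above 0. In deposited CPM the groups did not overlap for 5 higher and 3 lower of the 75. That is 10.7%, beside 24.2% of the table (10.4% higher and 13.7% lower). The genes named below were mostly taken from these. Known TGF-beta targets lay on both sides of 0. CTGF, a matrix-associated growth regulator induced by TGF-beta, was at 106.8, 110.3 and 81.7 CPM in low libraries 1 to 3 and at 183.6, 173.7 and 146.1 CPM in high libraries 1 to 3. The groups did not overlap (0.78, SE 0.15, edgeR quasi-likelihood adjusted p = 0.1002). FN1, the matrix protein fibronectin, was at 141.8, 84.4 and 170.6 CPM in the low and at 229.4, 477.7 and 293.9 CPM in the high libraries (1.32, SE 0.35). JUNB, an immediate early transcription factor that TGF-beta also induces, was at 48.7, 88.8 and 85.4 CPM in the low and at 27.5, 39.2 and 33.6 CPM in the high libraries. Its groups were apart in the opposite direction (-1.14, SE 0.24, adjusted p = 0.109), and it passed without low library 1 (-1.36, adjusted p = 0.0368). ID1, a target of BMP signals, had -0.12 (SE 0.30), and SKIL, a repressor of SMADs, 0.46 (SE 0.20).

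Among regulators, ITGB6, an integrin subunit that frees TGF-beta from its latent form, was at 10.5, 15.4 and 13.1 CPM in the low and at 17.4, 23.8 and 21.1 CPM in the high libraries (0.69, SE 0.18, edgeR quasi-likelihood adjusted p = 0.134). TNKS2, a tankyrase that promotes the breakdown of AXIN, had 0.35 (SE 0.13) and the beta-catenin co-activator PYGO2 -0.44 (SE 0.15), both without overlap. VEGFA, an angiogenic growth factor listed among Wnt targets, was at 239.9, 508.9 and 385.2 CPM in the low and at 178.3, 233.0 and 110.4 CPM in the high libraries (-1.10, SE 0.33, adjusted p = 0.164). The gap between the groups there was narrow, between 233.0 and 239.9 CPM.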

How the data were processed

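Total RNA was made into Illumina TruSeq libraries, per the labels' protocols. FastQC 0.10.1, Trimmomatic 0.22, TopHat2 2.0.4 and BWA 0.6.2 are named in the submitters' processing notes. The sources used here do not give the read counter, strand setting, genome build or the authors' test, and positions are printed as deposited. The authors deposited raw read counts and CPM per library. The authors' log2 fold changes (low over high, turned around here) and p-values stand beside them, per the file headers. The count divided by the deposited CPM gave 1 library total per library, used as library size.

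Counts of all 7661 genes (all kept by filterByExpr) were fitted in edgeR 4.0.16 (R 4.3.3) with TMM factors and the quasi-likelihood F-test, two-sided, without covariates. Standard errors were derived from the F statistic (size of the log2 difference over the root of F). With 3 against 3 libraries, exact permutation p-values are 0.1 at the smallest. The fit was tested on simulated counts. DESeq2 1.42.0 and limma 3.58.1 (voom) were alternatives. The span trend was a lowess of each library's deviations on log10 span, entered as an offset. Per-library values were printed for members without group overlap and for a fixed set of core genes. They were also printed for the remaining receptor members and for SFRP2. The members and lists were chosen with earlier results of these data known. Exon lengths were not used, so CPM of different records do not compare their transcript levels.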

Additional observations from a re-analysis of the deposited data

How the results depend on the processing

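The 0 members called became 10 in DESeq2 (9 higher, 1 lower), 6 in edgeR's exact test (6 higher) and 1 at an adjusted p of 0.1 (LRP6). They stayed at 0 with DESeq2 size factors, upper-quartile factors, library sizes from listed genes, no filter, a minimum mean CPM of 20, limma-voom, the span trend removed and each library left out. Over all genes the 11 calls became 518 in DESeq2, 316 in the exact test and 77 at 0.1, and ranged from 1 (without low library 2) to 30 (without low library 1) with each library left out; without high libraries 1, 2 and 3 they were 4, 4 and 5. The 0 calls among other pathway genes became 5 in DESeq2 and 4 in the exact test, and 0 to 1 with each library left out (JUNB without low library 1). With the replicate block, 0 members, 0 other pathway genes and 2 genes of the table were called. The labels do not say that the numbers pair animals, so pairing was not assumed. Same-numbered libraries had deviations correlated at 0.11, 0.04 and -0.07, and different-numbered ones at -0.18 to 0.14. So few values cannot decide whether the numbers pair animals. The median of the members was 0.07 among the 19 records with a mean CPM of at least 20, and 0.12 to 0.20 with each library left out. Signs near 0 changed: TGFB1 had -0.0058 and CTNNAL1 -0.012 with upper-quartile factors, and with the span trend removed CTNNAL1 had -0.14, CTNNA1 -0.23, ACVR1 -0.0041 and ID1 0.042. With each library left out TGFB1 ran from -0.17 to 0.13, SMAD3 from -0.19 to 0.23, CTNNAL1 from -0.12 to 0.21, FZD6 from -0.24 to 0.028, SFRP2 from -0.35 to 0.17, SMAD1 from -0.38 to 0.0095, CTNNA1 from -0.049 to 0.092, ACVR1 from -0.081 to 0.34 and ID1 from -0.39 to 0.20. Apart from the fewer genes or samples in some fits, the cause was not tested.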

Other observations

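Records that the symbol rule missed, but that the Ensembl name table or the deposited label ties to these pathways, were looked up after the members. LRP5, the sister co-receptor of LRP6 (ENSSSCG00000012885, no symbol in the deposited table), was at 20.4, 22.3 and 15.2 CPM in the low and at 20.7, 19.5 and 23.5 CPM in the high libraries. Its log2 fold change was 0.17 (SE 0.16), with overlap, beside 0.93 for LRP6. The record labelled APC1 is named APC, the destruction complex scaffold, in the Ensembl table. It was at 35.3, 28.98 and 11.1 CPM in the low and at 45.6, 42.1 and 36.3 CPM in the high libraries (0.76, SE 0.35, edgeR quasi-likelihood adjusted p = 0.297), without overlap. DVL2 (ENSSSCG00000025689) had -0.25 (SE 0.18), beside -0.41 for DVL1.

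The record named CTNNA2 (ENSSSCG00000008250, an alpha-catenin known from neurons) was singled out after its values were seen. It had 12 reads in low library 1 and 11 in high library 1, against 697, 493, 301 and 504 reads in low libraries 2 and 3 and high libraries 2 and 3. Its groups overlapped, and the log2 fold change was -0.38 (SE 1.26). In the whole table, 2 records were over 5-fold lower in both libraries numbered 1 than in every other library: CTNNA2 and OAS1. For the libraries numbered 2 and 3 there were 0 and 1 such records.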
